A study of Homo sapiens with 24 samples.

Results

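Untreated OCI-AML3 cells were compared with untreated Molm-14 cells, 2 established human acute myeloid leukaemia (AML) cell lines, across all 13033 genes of the expression table. The members are the 8 DMSO libraries, 4 of each line, chosen by the cell line and treatment labels from the 24 libraries that the labels list and the 23 library columns of the table. Molm-14 is labelled FLT3-ITD, an internal tandem duplication in the receptor tyrosine kinase FLT3 that keeps the receptor active without its ligand. OCI-AML3 (OCIAML-3 in the labels) carries NRAS Q61L, a substitution that holds the NRAS protein in its active, GTP-bound form. All cells were grown in RPMI medium with fetal bovine serum, the labels place every library in batch 1, and the DMSO groups received the solvent of RMC-7977, an inhibitor of active RAS. The same lines at 25 nM RMC-7977, with 4 libraries per line at 2 h and with 4 Molm-14 and 3 OCI-AML3 libraries at 24 h, were used to ask whether a difference was also present in libraries that the untreated comparison did not use. The time that the DMSO cells spent in solvent is not given by line. Each genotype is represented by 1 line, so the FLT3 and NRAS alleles cannot be told apart from every other difference between the lines. Separate cultures behind the 4 libraries of a line are not stated. The p-values therefore describe library-to-library spread, which may be technical.

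AML is a cancer of immature myeloid cells, the precursors of granulocytes and monocytes. Myeloid identity is set by transcription factors such as PU.1 (SPI1) and C/EBP-alpha (CEBPA), and immaturity is maintained in many leukaemias by homeobox (HOX) factors with their cofactor MEIS1. FLT3 with an internal tandem duplication signals through STAT5 in addition to RAS and PI3K, whereas mutant NRAS feeds directly into the RAF, MEK and ERK kinases and into PI3K. As background on the lines, Molm-14 also carries a fusion of KMT2A with MLLT3, and OCI-AML3 carries a mutated NPM1 gene and a DNMT3A mutation. Gene counts cannot separate reads of a fusion or a mutant allele from those of the normal gene.

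Expression is given in CPM, read counts scaled to the size of each library, for libraries 1 to 4 of a line in that order, or as the mean ± SD over 4 libraries. Differences are log2 OCI-AML3 minus log2 Molm-14 with the standard error (SE), on the log2(CPM + prior) scale of the table, which understates the change of low genes. A gene was called when its limma p-value, adjusted over all 13033 genes by Benjamini-Hochberg, was below 0.05 and its difference was at least 1 on the log2 scale. The lines differed at 3932 genes (30.2% of those tested), 2339 higher in OCI-AML3 (17.9%) and 1593 lower (12.2%). At an adjusted p below 0.05 alone, 10740 genes (82.4%) differed, and the 4 values of one line did not overlap those of the other at 9919 genes (76.1%). Of the called genes, 1877 differed by more than 4-fold and 485 by more than 32-fold. The median difference over all genes was 0.07, with quartiles of -0.44 and 0.67. These values, and the shares of 17.9% higher and 12.2% lower, stand for all genes wherever a list is described below.

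The libraries of a line lay close together. Pearson correlations of log2 CPM were at least 0.992 within a line and at most 0.769 between the lines. The first principal component of the 8 libraries held 96.0% of the variance and separated the lines, and the next component held 0.863%. The median SD between libraries was 0.09 on the log2 scale in Molm-14 and 0.10 in OCI-AML3, against a median absolute difference between the lines of 0.55. Effective library sizes of the 8 libraries, as recovered from the low values of the table, ran from 15.4 to 22.4 M reads.

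**Figure D1:**
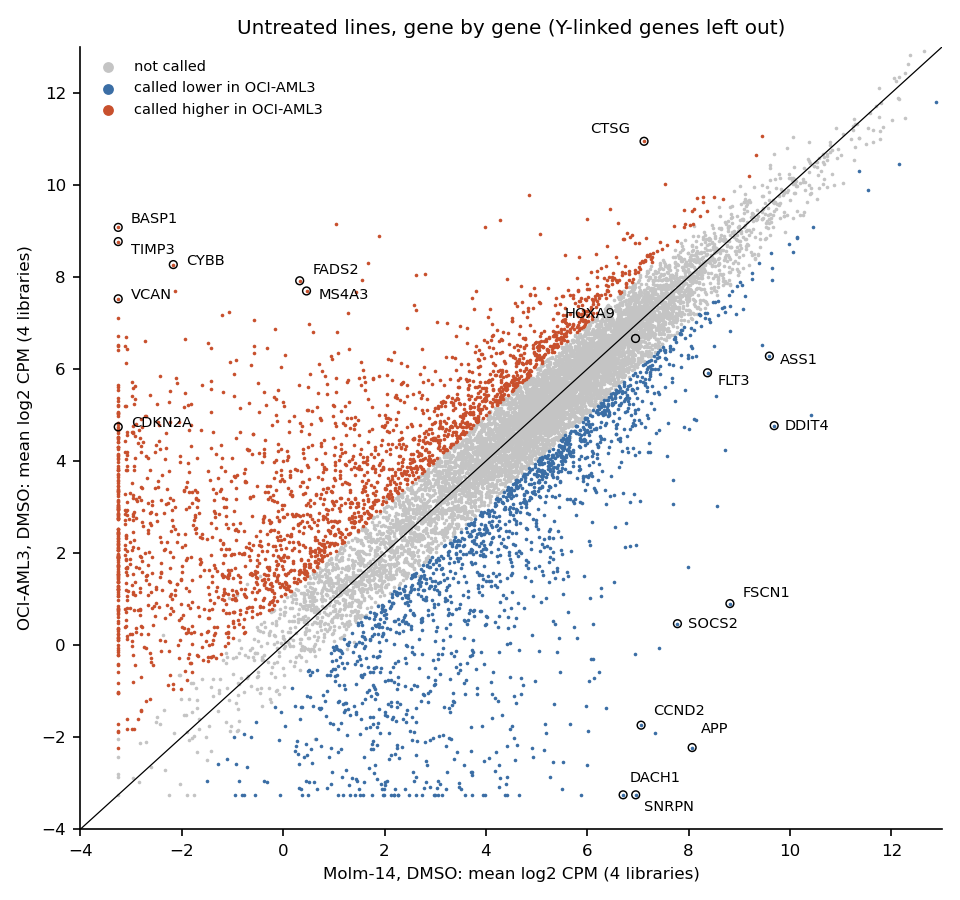
Mean log2 CPM of each gene in the 4 untreated Molm-14 libraries (horizontal) and the 4 untreated OCI-AML3 libraries (vertical), with called genes coloured by direction. Of 13033 genes tested, 2339 were called higher in OCI-AML3 and 1593 were called lower, and Y-linked genes are not drawn. Lines of points at the left and bottom edges are genes close to the lowest value of the table in 1 line.

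A small part of the 3932 called differences were of presence against absence. A gene was counted as near silent in a line when all 4 libraries lay under 0.25 CPM while all 4 of the other line reached 5 CPM. By that measure 174 genes were near silent in Molm-14, 92 of them with no reads, and 43 were near silent in OCI-AML3, 17 of them with no reads. With a limit of 0.5 CPM the numbers were 247 and 87. Most stayed under 0.25 CPM with drug: of the 174 genes 140 did so in every Molm-14 library at 2 h and 142 at 24 h, and of the 43 genes 33 and 30 did so in OCI-AML3. None reached 5 CPM in every treated library of the line in which it was near silent. The highest means among them were those of RHOB, a small GTPase, at 5.3 CPM in Molm-14 at 2 h, and of PSD3 at 5.96 CPM in Molm-14 at 24 h.

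Promoter sequence is shown for 5 of the near silent genes as examples of transcripts present in 1 line and near absent in the other. A promoter was available for 130 genes near silent in Molm-14 and 27 near silent in OCI-AML3. The 5 shown do not stand for the rest. Each run is the 250 bases before the start site in the RefSeq promoter table on GRCh38.p14, 5′ to 3′ on the gene's strand, with no annotated exon in it. For FBP1 that start lies inside the gene's outer bounds (chr9:94603133-94640263). CG dinucleotides, where DNA methylation occurs and which read the same on both strands, are in capitals. CDHR1 (chr10:84194287-84194536, plus strand), FBP1 (chr9:94639519-94639768, minus strand) and CXCL1 (chr4:73869143-73869392, plus strand) were near silent in Molm-14. DACH1 (chr13:71867205-71867454, minus strand) and EFNA5 (chr5:107670938-107671187, minus strand) had no reads in OCI-AML3.
CDHR1: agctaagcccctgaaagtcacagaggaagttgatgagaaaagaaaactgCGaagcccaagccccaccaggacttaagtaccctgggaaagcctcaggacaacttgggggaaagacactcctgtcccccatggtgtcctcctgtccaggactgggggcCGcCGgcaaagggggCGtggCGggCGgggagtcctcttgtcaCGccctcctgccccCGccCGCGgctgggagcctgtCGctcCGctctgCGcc
FBP1: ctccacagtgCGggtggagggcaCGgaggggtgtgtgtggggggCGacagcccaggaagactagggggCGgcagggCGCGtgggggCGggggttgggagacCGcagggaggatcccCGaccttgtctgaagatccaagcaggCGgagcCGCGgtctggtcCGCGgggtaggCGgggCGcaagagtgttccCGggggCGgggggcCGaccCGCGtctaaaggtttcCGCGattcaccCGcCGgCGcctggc
CXCL1: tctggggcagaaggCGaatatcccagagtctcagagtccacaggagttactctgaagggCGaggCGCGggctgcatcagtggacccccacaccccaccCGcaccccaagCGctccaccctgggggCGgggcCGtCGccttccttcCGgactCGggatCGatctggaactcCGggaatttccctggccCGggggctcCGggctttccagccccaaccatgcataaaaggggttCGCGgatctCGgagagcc
DACH1: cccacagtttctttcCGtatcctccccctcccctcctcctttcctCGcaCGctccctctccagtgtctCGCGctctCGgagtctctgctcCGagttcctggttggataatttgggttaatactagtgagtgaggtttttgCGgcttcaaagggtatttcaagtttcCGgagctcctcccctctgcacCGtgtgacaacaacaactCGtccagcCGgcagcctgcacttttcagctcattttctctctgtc
EFNA5: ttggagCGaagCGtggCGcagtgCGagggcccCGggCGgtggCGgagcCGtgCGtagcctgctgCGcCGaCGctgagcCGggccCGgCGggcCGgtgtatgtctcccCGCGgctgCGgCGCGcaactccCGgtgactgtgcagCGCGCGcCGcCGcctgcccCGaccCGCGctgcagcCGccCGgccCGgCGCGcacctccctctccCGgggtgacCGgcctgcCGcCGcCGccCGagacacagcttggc
The windows hold 13 CG in CDHR1, 26 in FBP1, 18 in CXCL1, 12 in DACH1 and 41 in EFNA5. Over the 7493 measured genes with 1 promoter in the RefSeq table the median was 22, with quartiles of 15 and 28, and 99.3% held at least 1. The 5 promoters ran from below the lower quartile to above the upper one. DNA methylation was not measured.

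Among the genes higher in OCI-AML3, several of the widest gaps were in genes with no reads in Molm-14. BASP1 (chr5:17216823-17276834), a membrane-bound signalling protein that also acts as a co-repressor of WT1, had no reads in Molm-14 and 538, 544, 534 and 547 CPM in OCI-AML3, at least 12793-fold higher against a floor of 3 reads over the group. TIMP3 (chr22:32801705-32863041), an inhibitor of matrix metalloproteinases, had no reads in Molm-14 and 448, 433, 431 and 435 CPM in OCI-AML3, at least 10330.1-fold higher. VCAN (chr5:83471744-83582302), the proteoglycan versican that monocytes express, had no reads in Molm-14 and 175, 189, 174 and 201 CPM in OCI-AML3, at least 4350.4-fold higher. Every OCI-AML3 library carried these 3 transcripts and no Molm-14 library held a read of them. MKX, a homeobox factor, and PCDH20, a protocadherin, were higher by at least 3279 and 2476-fold. CDHR1, a cadherin-related protein, gave a ratio of reads of 7398 (exact 95% interval 1327 to 292225), from 1 read in Molm-14. CYBB, the catalytic subunit of the phagocyte NADPH oxidase, was at 0.243, 0.105, 0.273 and 0.353 CPM in Molm-14 and at 289.7, 311, 306 and 329 CPM in OCI-AML3.

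The remaining genes with the widest differences on this side were HSPA1A, CPNE7, BEX3, PID1, MT1G, NIPSNAP1, MAP1LC3A and SLC22A31. CPNE7, BEX3 and PID1 had no reads in Molm-14 and were higher by at least 2181, 2140.5 and 2033-fold. MT1G, NIPSNAP1 and SLC22A31 had 1 read each in Molm-14, and their ratios of reads were 6426 (exact 95% interval 1153 to 253840.0), 6133 (exact 95% interval 1100.3 to 242265) and 5076 (exact 95% interval 911 to 200534). HSPA1A and MAP1LC3A had log2 differences of 9.83 and 9.34. MAP1LC3A encodes a membrane marker of autophagosomes and MT1G a metal-binding metallothionein. HSPA1A, an inducible chaperone, is uncertain, because its near-identical neighbour HSPA1B was at 150.4 ± 6.29 CPM in Molm-14 and 149.98 ± 13.9 CPM in OCI-AML3, and reads can be assigned to either copy.

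On the Molm-14 side, several genes with the widest gaps had no reads in OCI-AML3. APP (chr21:25880550-26171128), the amyloid precursor protein, was at 264, 267, 276 and 268 CPM in Molm-14 and at 0.36, 0.105, 0.194 and 0.283 CPM in OCI-AML3. SNRPN (chr15:24823637-24978723), an imprinted gene that encodes a spliceosome-associated protein, was at 129, 125, 119 and 123 CPM in Molm-14 and had no reads in OCI-AML3, at least 3335-fold lower. DACH1 (chr13:71437966-71867204), a transcriptional co-repressor, was at 107, 104, 103 and 105 CPM in Molm-14 and had no reads in OCI-AML3, at least 2805-fold lower. ZNF521, a zinc finger factor of immature haematopoietic cells, was at 58.6, 59.8, 62.5 and 54.2 CPM in Molm-14 with no reads in OCI-AML3, at least 1575-fold lower. NFATC2, a calcium-regulated transcription factor, was lower by at least 668-fold. SP9, CCND2, GABRA4, FLNC, FSCN1, NR2F1, TRIM71 and DYSF had log2 differences between -9.23 and -7.74. SNX19 and MFAP4, with 1 and 3 reads in OCI-AML3, had ratios of Molm-14 to OCI-AML3 reads of 3633 (exact 95% interval 652 to 143552) and 1029 (exact 95% interval 352 to 4991). FLNC and FSCN1 encode actin cross-linkers, and TRIM71 is an RNA-binding protein of early development.

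Both lines carried the core of a myeloid programme. CEBPA was at 574 ± 39.6 CPM in Molm-14 and 773 ± 66.8 CPM in OCI-AML3, a difference of 0.43 ± 0.06 that was not called. SPI1 was at 166 ± 7.19 CPM in Molm-14 and 382 ± 31.3 CPM in OCI-AML3 and was called higher in OCI-AML3 (1.20 ± 0.07, adjusted p = 3.48e-15, limma). The early granule genes AZU1 and ELANE encode azurocidin and neutrophil elastase. AZU1 averaged 940.3 CPM in Molm-14 and 642 CPM in OCI-AML3. ELANE averaged 476 CPM in Molm-14 and 941 CPM in OCI-AML3. Neither was called, although ELANE passed at 1.05 without OCI-AML3 library 4 and at 1.02 without Molm-14 library 1. Markers of other lineages were scarce: of 30 lymphoid genes 6 were in the table and 3 of those were lower in OCI-AML3, and of 27 erythroid and megakaryocyte genes 6 were in the table. T-cell receptor constant gene TRAC was at 13 ± 1.47 CPM in Molm-14 and 0.152 ± 0.0379 CPM in OCI-AML3, and NCAM1, which some AML cells express, was at 48.3 ± 1.87 CPM in Molm-14 and 78.1 ± 2.6 CPM in OCI-AML3. Of 20 epithelial and stromal genes 6 were in the table, with the intermediate filament gene VIM at 639 ± 7.7 CPM in Molm-14 and 1622 ± 84.9 CPM in OCI-AML3 and the collagen gene COL1A2 at means of 0.128 and 1.84 CPM. In bulk libraries, fewer cells of a type and less RNA per cell cannot be told apart.

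Among the haematopoietic transcription factors, 13 of 30 were higher in OCI-AML3, 5 were lower and 12 were not called, with a median difference of 0.63. ERG, an ETS factor of stem cells, had no reads in Molm-14 and was at 7.72, 8.44, 7.48 and 7.86 CPM in OCI-AML3, at least 184-fold higher. IRF8, which directs monocyte development, was at 607, 574, 596 and 567 CPM and 1156, 1178, 1225 and 1145 CPM, just past the threshold at 1.01 ± 0.03; it fell short without Molm-14 library 2 or 4 (0.995 and 0.989) or OCI-AML3 library 3 (0.985). CEBPB and CEBPD, which act late in myeloid maturation, were higher by 1.15 ± 0.07 and 2.44 ± 0.07. RUNX2 and RUNX3 were also higher (1.83 and 1.95), while RUNX1, the family member most tied to definitive haematopoiesis, was lower: it was at 245, 259, 257 and 255 CPM in Molm-14 and at 71.2, 79.1, 77.4 and 75 CPM in OCI-AML3 (-1.75 ± 0.04, adjusted p = 9.22e-27).

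The other factors lower in OCI-AML3 were PAX5, BCL11A, WT1 and MEF2C. PAX5, the B-cell commitment factor, was at 20.03 ± 1.7 CPM in Molm-14 and 0.352 ± 0.0529 CPM in OCI-AML3, and BCL11A, a lymphoid and progenitor factor, was at 65.3 ± 3.1 CPM in Molm-14 and 0.588 ± 0.0716 CPM in OCI-AML3. WT1, which many leukaemias express, was at 49.1 ± 3.25 CPM in Molm-14 and 1.68 ± 0.419 CPM in OCI-AML3. MEF2C was at 205 ± 8.72 CPM in Molm-14 and 56.3 ± 5.02 CPM in OCI-AML3, a difference of -1.87 ± 0.06. Lymphoid and progenitor factors at low levels were also found on the other side. TCF7, a T-cell factor, was higher at 0.984 ± 0.342 CPM in Molm-14 and 5.49 ± 0.654 CPM in OCI-AML3. TAL1, a stem cell and erythroid factor, averaged 0.132 CPM in Molm-14 and 4.42 CPM in OCI-AML3. Its ratio of reads was 155 (exact 95% interval 42.6 to 1284). EBF1, a B-cell factor, averaged 0.133 CPM in Molm-14 and 1.31 CPM in OCI-AML3. Its ratio of reads was 42.4 (exact 95% interval 11.4 to 355). MYB, GFI1, FLI1 and LYL1 were not called, with differences between -0.26 and 0.10.

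In the HOXA cluster on chromosome 7, HOXA3, HOXA4, HOXA5, HOXA6 and HOXA7, toward the 3′ end of the cluster, were lower in OCI-AML3. HOXA7 was at 16.4, 19.1, 20.5 and 20.9 CPM in Molm-14 and at 0.297, 0.105, 0.105 and 0.223 CPM in OCI-AML3, and HOXA5 was at 13.7 ± 0.413 CPM in Molm-14 and 1.6 ± 0.477 CPM in OCI-AML3. HOXA9, the member most often linked to leukaemia, was at 128, 121, 123 and 123 CPM in Molm-14 and at 100.4, 98.1, 106 and 101 CPM in OCI-AML3; the groups did not overlap, but the difference of -0.29 ± 0.04 was not called. HOXA10 and HOXA11 were also not called (0.52 and 0.23). At the 5′ end, HOXA13 was higher in OCI-AML3 (63 ± 1.13 CPM in Molm-14 and 129.8 ± 7.18 CPM in OCI-AML3, 1.04 ± 0.04), and so was the adjacent long non-coding gene HOTTIP (5.95 ± 1 CPM in Molm-14 and 44.1 ± 0.472 CPM in OCI-AML3, 2.91 ± 0.09). The strand setting of the authors' counting is not given, so reads of HOXA genes and of antisense transcripts that overlap them cannot be separated.

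Most measured HOXB genes were higher in OCI-AML3, and the measured HOXC genes were lower. HOXB2, HOXB3, HOXB4, HOXB5, HOXB6, HOXB7 and HOXB13 were higher in OCI-AML3. HOXB2 and HOXB5 had no reads in Molm-14. HOXB3 was at 0.334, 0.495, 0.33 and 0.353 CPM in Molm-14 and at 48.1, 49.2, 43.8 and 47.9 CPM in OCI-AML3, and HOXB6 gave a ratio of reads of 1309.9 (exact 95% interval 235 to 51772). HOXB9 went the other way, at 41 ± 1.88 CPM in Molm-14 and 2.74 ± 0.256 CPM in OCI-AML3, and HOXB8 was not called. All 5 measured HOXC genes, HOXC4, HOXC6, HOXC8, HOXC9 and HOXC10, were lower in OCI-AML3, with means between 0.116 and 0.201 CPM there against 1.59 to 9.29 CPM in Molm-14.

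**Figure D2:**
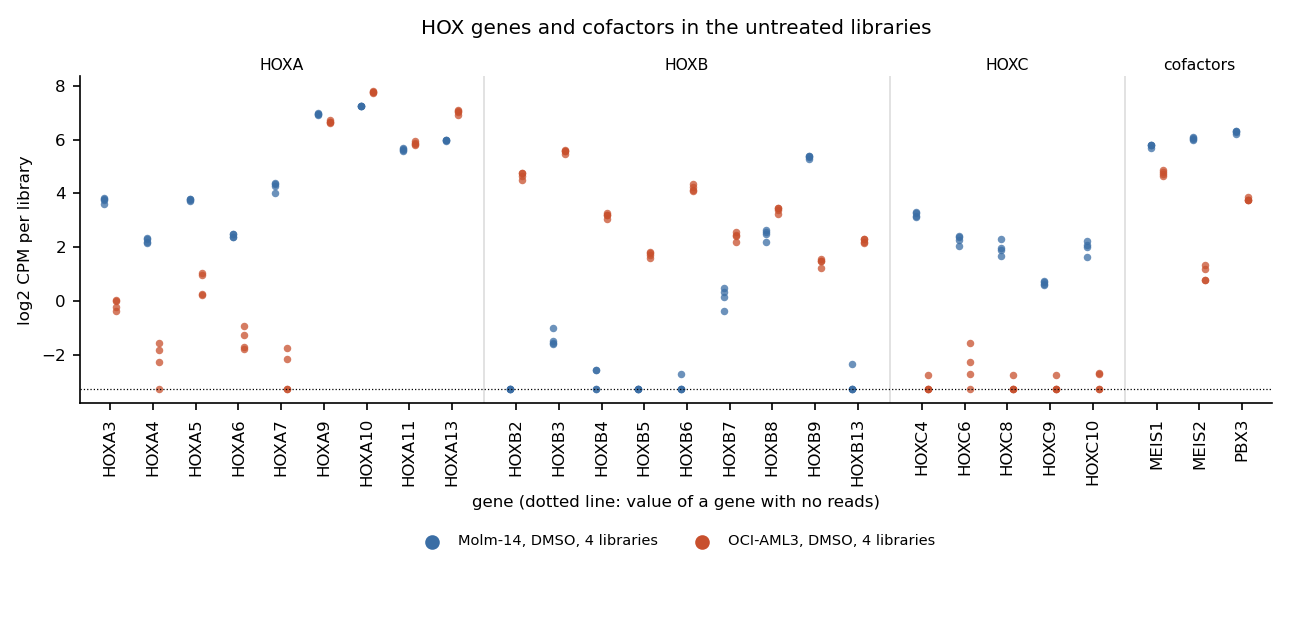
log2 CPM of HOX genes and HOX cofactors in the 4 untreated libraries of each line, 1 point per library. HOXA3 to HOXA7 and the HOXC genes sit higher in Molm-14, HOXB2 to HOXB7 and HOXB13 sit higher in OCI-AML3, and HOXA9 to HOXA11 lie close together.

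Among HOX cofactors and menin-complex genes, 3 of 16 were higher in OCI-AML3 and 5 were lower. MEIS1, the DNA-binding partner of HOXA9, was at 55.5, 52, 55.3 and 55.9 CPM in Molm-14 and at 26.3, 27.6, 25 and 29 CPM in OCI-AML3, a difference of -1.02 ± 0.05 that was -0.985 without OCI-AML3 library 3. MEIS2 and PBX3 were lower by wider margins, at 66.2 ± 2.21 CPM in Molm-14 and 2.08 ± 0.419 CPM in OCI-AML3 and at 78.3 ± 2.86 CPM in Molm-14 and 13.8 ± 0.642 CPM in OCI-AML3. PBX4, low in OCI-AML3 at 3.21 CPM, was lower still in Molm-14. MEN1, which encodes menin, was higher (1.09 ± 0.06), and DOT1L, the histone H3 methyltransferase recruited by KMT2A fusions, was not called (-0.84). MLLT3, the fusion partner gene in Molm-14, was at 9.34 ± 1.16 CPM in Molm-14 and 1.31 ± 0.234 CPM in OCI-AML3, and KMT2A itself was not called (0.68).

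Monocyte and macrophage genes were mostly higher in OCI-AML3. Of 26 measured, 17 were higher and 1 was lower, with a median difference of 1.50. Their summed level ranged over 498 to 533 CPM in the Molm-14 libraries and 1642 to 1705 CPM in the OCI-AML3 libraries, and VCAN was among the members with no reads in Molm-14. LYZ, which encodes lysozyme, was at 102, 89.7, 98.2 and 101 CPM in Molm-14 and at 559, 572, 566 and 599 CPM in OCI-AML3 (2.56 ± 0.04, adjusted p = 2.08e-29). The pattern-recognition receptors TLR2 and TLR4 were at 0.7 ± 0.225 CPM in Molm-14 and 90.1 ± 2.42 CPM in OCI-AML3 and at 0.661 ± 0.0903 CPM in Molm-14 and 17.9 ± 1.38 CPM in OCI-AML3. CD14, the lipopolysaccharide co-receptor that defines classical monocytes, was at only 0.399 ± 0.108 CPM in Molm-14 and 3.4 ± 0.65 CPM in OCI-AML3. CD68 and CD36, a lysosomal glycoprotein and a scavenger receptor, were higher by 1.56 ± 0.05 and 1.20 ± 0.05. The calcium-binding genes S100A8 and S100A9 and the Fc receptor gene FCGR1A were not called (-0.03, -0.61 and -0.73). ITGAM, which encodes CD11b, was the member lower in OCI-AML3 (-1.08, and -0.993 without OCI-AML3 library 2).

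Granule genes of neutrophil precursors were also higher on balance, with 6 of 16 higher, 1 lower and a median of 0.95. CTSG, the serine protease cathepsin G, was at 141, 136, 142 and 138 CPM in Molm-14 and at 2136, 1871, 2025 and 1894 CPM in OCI-AML3 (3.83 ± 0.04, adjusted p = 1.78e-34). PRTN3, the proteinase of the same azurophil granules, was higher by 1.80 ± 0.07, and MS4A3, a marker of granulocyte-monocyte progenitors, was at 1.39 ± 0.26 CPM in Molm-14 and 208 ± 8.7 CPM in OCI-AML3. MPO, myeloperoxidase, was low in both lines at 2.93 ± 0.331 CPM in Molm-14 and 2.67 ± 0.468 CPM in OCI-AML3 and was not called. CST7, a cystatin that inhibits cathepsins, was lower (-2.33 ± 0.09).

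Surface antigens used to recognise leukaemia cells divided between the lines, 9 of 25 higher in OCI-AML3 and 8 lower. CD33, the target of antibody conjugates in AML, was higher (32.2 ± 0.947 CPM in Molm-14 and 75.7 ± 1.77 CPM in OCI-AML3), as were the myeloid peptidase ANPEP (CD13), SIGLEC7, CD276 and CD44. CXCR4, the receptor that holds cells in the marrow, was at 40.3, 37.2, 35.8 and 36.5 CPM in Molm-14 and at 217, 211, 226 and 212 CPM in OCI-AML3. IL3RA (CD123) and IL1RAP, antigens of leukaemic stem cells, were lower in OCI-AML3, at 38 ± 1.22 CPM in Molm-14 and 5.01 ± 0.547 CPM in OCI-AML3 and at 52.6 ± 3.3 CPM in Molm-14 and 8.87 ± 1.11 CPM in OCI-AML3. The macrophage checkpoint ligand CD47 differed by -1.01 ± 0.05, a call lost without Molm-14 library 3 or OCI-AML3 library 4 (-0.995 each). Stem and progenitor genes were likewise mixed, 4 of 13 higher and 5 lower: CD34 was low in both lines (3.3 and 3.55 CPM), and CD38 was at 2.46 ± 0.411 CPM in Molm-14 and 54.7 ± 3.18 CPM in OCI-AML3.

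FLT3, STAT5A and several STAT5 targets were higher in Molm-14, while other genes of the JAK-STAT list were not called or were higher in OCI-AML3. FLT3 (chr13:28003274-28100576) was at 338, 318, 332 and 339 CPM in Molm-14 and at 61.8, 58.1, 61.5 and 60.7 CPM in OCI-AML3, 5.48-fold lower (-2.45 ± 0.04, adjusted p = 2.68e-30). SOCS2 (chr12:93569969-93626236), a STAT5 target and feedback inhibitor, was at 236, 224, 209.6 and 210.1 CPM in Molm-14 and at 1.64, 1.08, 1.17 and 1.76 CPM in OCI-AML3. The lowest Molm-14 library exceeded the highest OCI-AML3 library for both genes. Of the 26 measured JAK-STAT genes and STAT5 targets, 8 were lower in OCI-AML3 and 3 were higher, with a median of -0.30. The lower calls made up 30.8% of the list, against 12.2% of all genes. The higher calls made up 11.5%, against 17.9% of all genes. The other 15 were not called, STAT5B among them (-0.45). STAT5A was at 23.4, 23.7, 25 and 24.8 CPM in Molm-14 and at 1.82, 1.23, 1.81 and 1.29 CPM in OCI-AML3. Among the other targets, CISH, SOCS1, SOCS3, OSM and PIM1 were lower at -1.63 ± 0.07, -1.98 ± 0.15, -2.06 ± 0.21, -1.10 ± 0.17 and -1.16 ± 0.09, with OSM at -0.990 without OCI-AML3 library 1. CCND2 (chr12:4273762-4305353), a D-type cyclin, was at 138, 126, 129 and 142 CPM in Molm-14 and at 0.309, 0.243, 0.373 and 0.285 CPM in OCI-AML3. JAK3 and PIM2 were higher in OCI-AML3 (3.23 and 1.07), as was ID1 (1.25 ± 0.19 CPM in Molm-14 and 50.5 ± 5.2 CPM in OCI-AML3). PTPN6, the phosphatase SHP-1, averaged 277 and 552 CPM and lay just under the threshold at 1.00 ± 0.04; it passed without Molm-14 library 1 (1.004) or OCI-AML3 library 2 or 4 (1.008 and 1.02).

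Other receptors and their ligands also separated the lines. Among 23 measured receptor tyrosine kinases and ligands, 9 were lower in OCI-AML3 (39.1%) and 6 were higher (26.1%). The shares of all genes were 12.2% and 17.9%. IGF1R was at 115 ± 2.44 CPM in Molm-14 and 4.47 ± 0.589 CPM in OCI-AML3, and GAS6, the ligand of AXL and MERTK, was at 378 ± 20.9 CPM in Molm-14 and 8.13 ± 0.836 CPM in OCI-AML3. AXL was lower (-2.21 ± 0.17), while MERTK had no reads in Molm-14 and averaged 2.52 CPM in OCI-AML3. VEGFA and FGFR1 were lower (-2.42 ± 0.04 and -1.84 ± 0.07). HGF, the ligand of MET, was near silent in Molm-14 and averaged 10.0 CPM in OCI-AML3. KITLG, the ligand of KIT, was the reverse, averaging 8.37 CPM in Molm-14 with 2 reads in OCI-AML3.

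Of 33 measured cytokine receptors, 8 were higher in OCI-AML3 (24.2%), 6 were lower (18.2%) and 19 were not called. The shares of all genes were 17.9% higher and 12.2% lower. The shared beta chain of the GM-CSF, IL-3 and IL-5 receptors, CSF2RB, was at 4.01 ± 0.58 CPM in Molm-14 and 26.9 ± 1.42 CPM in OCI-AML3, whereas the GM-CSF alpha chain CSF2RA was at 21.6 ± 0.618 CPM in Molm-14 and 1.53 ± 0.162 CPM in OCI-AML3. LIFR and OSMR, receptors of the IL-6 family, were higher; LIFR had no reads in Molm-14 and OSMR was at 0.686 ± 0.185 CPM in Molm-14 and 24.2 ± 1.9 CPM in OCI-AML3. TNFRSF1B, the inducible TNF receptor, was higher by 2.42 ± 0.06.

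NRAS and HRAS differed by less than the threshold for a call. NRAS (chr1:114704469-114716771) was at 141, 128, 131 and 133 CPM in Molm-14 and at 81.4, 95.4, 89.97 and 97.3 CPM in OCI-AML3, 1.46-fold lower in the line that carries its mutant allele (-0.55 ± 0.05, not called). HRAS differed by 0.45 ± 0.07. RAS genes and their regulators were called about as often as all genes (34.2% against 30.2%). Of the 38 listed, 8 were higher (21.1%) and 5 were lower (13.2%), with a median of 0.04. Over all genes 17.9% were higher and 12.2% were lower. RASGRP2 (chr11:64726911-64745456), a calcium-regulated exchange factor that acts mainly on RAP1, was at 35, 33.5, 33.1 and 32.8 CPM in Molm-14 and at 521, 492, 520.4 and 442 CPM in OCI-AML3. GRB2 (chr17:75318076-75405678), the adaptor that recruits SOS to receptors, was at 281, 286, 287 and 293 CPM in Molm-14 and at 868, 829, 861 and 817 CPM in OCI-AML3 (1.56 ± 0.03). The GTPase-activating proteins diverged, RASA1 higher by 1.47 ± 0.06, RASA3 and RASAL2 lower at -1.49 ± 0.04 and -2.96 ± 0.11. LZTR1, which targets RAS proteins for degradation, was higher (1.54 ± 0.06). The docking proteins GAB1 and GAB2 were reversed: GAB1 was at 0.219 ± 0.0168 CPM in Molm-14 and 6.59 ± 0.811 CPM in OCI-AML3 and GAB2 at 53.7 ± 4.39 CPM in Molm-14 and 8.48 ± 0.858 CPM in OCI-AML3. PTPN11, the phosphatase SHP2, was not called (-0.92).

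In the kinase cascade, 3 of 25 genes were higher in OCI-AML3 and 3 were lower. That is 12% each way, against 17.9% and 12.2% of all genes. MAPK3 (chr16:30114105-30123220), which encodes ERK1, was at 11, 14.7, 9.81 and 10.3 CPM in Molm-14 and at 57.8, 54.3, 61.5 and 50.8 CPM in OCI-AML3 (2.31 ± 0.08, adjusted p = 2.46e-21). ARAF, BRAF, MAP2K1 and MAP2K2 were not called, with differences between -0.25 and 0.65. KSR1, a scaffold of the cascade, and MAP3K8 were lower (-2.07 ± 0.06 and -1.55 ± 0.12).

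Genes listed as ERK output, and the feedback inhibitors among them, showed no common direction. Of 28, 6 were higher in OCI-AML3 and 7 were lower, with a median of -0.13. DUSP6 (chr12:89347235-89352501), the phosphatase of cytoplasmic ERK, was at 47.1, 43.7, 43 and 42.3 CPM in Molm-14 and at 9.96, 12.1, 13.3 and 12.4 CPM in OCI-AML3 (-1.89 ± 0.20). DUSP4, a nuclear phosphatase of the same family, was the reverse at 1.31 ± 0.147 CPM in Molm-14 and 11.7 ± 0.522 CPM in OCI-AML3. SPRY4, a Sprouty inhibitor upstream of RAF, was at 10.8, 8.57, 9.72 and 10.8 CPM in Molm-14 and at 38.4, 41.2, 39.1 and 37 CPM in OCI-AML3 (1.97 ± 0.19), while SPRED3 was at 4.7 ± 0.725 CPM in Molm-14 and 0.335 ± 0.11 CPM in OCI-AML3. The ETS factors ETV1 and ETV5 were lower (-1.54 ± 0.30 and -1.42 ± 0.15). KLF2 and JUN were higher (3.81 ± 0.09 and 1.81 ± 0.11). KLF2 averaged 4.2 CPM in untreated Molm-14 and 58.4 CPM in untreated OCI-AML3. With the RAS inhibitor it was higher in both lines, at 108 CPM in Molm-14 and 145 CPM in OCI-AML3 at 24 h. Its place among genes induced by ERK was not tested. MYC, an output of both pathways, was at 601 ± 3.22 CPM in Molm-14 and 374 ± 9.47 CPM in OCI-AML3 and was not called (-0.68 ± 0.04), and MCL1, at 374 ± 8.68 CPM in Molm-14 and 375 ± 9.6 CPM in OCI-AML3, overlapped between the lines.

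**Figure D3:**
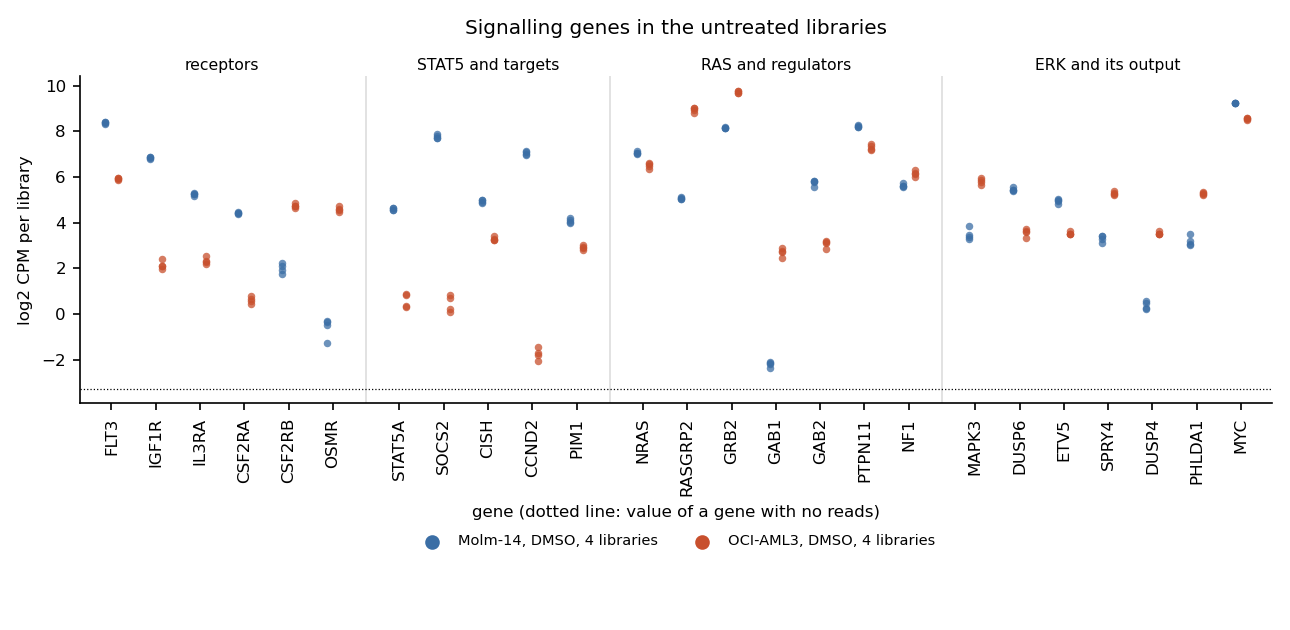
log2 CPM of genes of the FLT3, STAT5, RAS and ERK pathways in the 4 untreated libraries of each line, 1 point per library. FLT3, SOCS2, CCND2 and STAT5A sit higher in Molm-14, and RASGRP2, GRB2 and MAPK3 sit higher in OCI-AML3.

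In the PI3K pathway 7 of 40 genes were higher (17.5%) and 6 were lower (15%), with a median of 0.07. The list was called about as often as all genes (32.5% against 30.2%), of which 17.9% were higher and 12.2% lower. INPP4B, a phosphoinositide phosphatase, was at 3.01 ± 0.372 CPM in Molm-14 and 63.4 ± 3.58 CPM in OCI-AML3. The G protein-linked subunits PIK3CG and PIK3R5 were both higher (2.40 ± 0.05 and 2.48 ± 0.07). DDIT4 (chr10:72273924-72276036), a stress-induced inhibitor of mTORC1, was at 817, 843, 823 and 818 CPM in Molm-14 and at 29.3, 24.7, 29.6 and 25.8 CPM in OCI-AML3. SESN3, a sestrin that also restrains mTORC1, was at 0.289, 0.17, 0.33 and 0.291 CPM in Molm-14 and at 93, 105, 96.8 and 111 CPM in OCI-AML3, and its relative SESN2 was lower (-1.45 ± 0.07).

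Kinases and adaptors of immune receptors included 7 of 32 higher (21.9%) and 5 lower (15.6%), against 17.9% and 12.2% of all genes. FCER1G, the Fc receptor gamma chain, LAT, the T-cell linker, and SRC were at 0.541 ± 0.147 CPM in Molm-14 and 73.4 ± 4.18 CPM in OCI-AML3, at 1.46 ± 0.368 CPM in Molm-14 and 127 ± 9.81 CPM in OCI-AML3 and at 1.86 ± 0.478 CPM in Molm-14 and 50.8 ± 3.35 CPM in OCI-AML3. SYK and PTK2B were higher by 1.49 ± 0.04 and 1.68 ± 0.05, and FYN and PTK2 were lower at -2.08 ± 0.11 and -1.61 ± 0.06. Of 38 G protein signalling genes, 9 were higher (23.7%) and 13 were lower (34.2%). RGS18, a regulator of G proteins in blood cells, was at 2.51 ± 0.663 CPM in Molm-14 and 86.8 ± 6.43 CPM in OCI-AML3, and RGS16, another regulator, was at 151 ± 5.12 CPM in Molm-14 and 18.2 ± 0.621 CPM in OCI-AML3.

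Inflammatory output was divided gene by gene. Of 25 NF-kB factors and inflammatory genes, 9 were higher in OCI-AML3 and 5 were lower. CXCL8 and CXCL1, chemokines for neutrophils, were at 2.14 ± 0.589 CPM in Molm-14 and 111 ± 5.32 CPM in OCI-AML3 and, with no reads in Molm-14, at 30.2, 32.3, 33 and 30.7 CPM in OCI-AML3. IL1B and CCL5 were higher (2.47 ± 0.24 and 1.84 ± 0.06). TNF was lower (140.2 ± 6.61 CPM in Molm-14 and 52.2 ± 2.45 CPM in OCI-AML3), as were IL18 and TNFAIP3, the NF-kB inhibitor A20 (-4.66 ± 0.25 and -2.63 ± 0.09). Developmental signalling also differed, with 10 of 30 WNT, Notch and TGF-beta genes higher and 7 lower. HES1, a Notch target, averaged 21.5 CPM in Molm-14 and had 3 reads in OCI-AML3, and the ligand JAG1 was lower (-2.15 ± 0.06).

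The BCL2 family sets the balance between survival and apoptosis. Of its 18 measured genes 33.3% were called, against 30.2% of all genes, with a median difference of 0.63. The 12 of 18 below the threshold included BCL2 (102 ± 0.712 CPM in Molm-14 and 151 ± 5.05 CPM in OCI-AML3), BCL2L1, BAX, BAK1 and BBC3. BCL2L11, the pro-apoptotic BIM, was higher in OCI-AML3 (1.49 ± 0.13), as were BID, BNIP3 and BNIP3L (1.10, 1.76 and 2.09). BIK and BMF, both BH3-only genes, were lower (-2.56 ± 0.15 and -1.45 ± 0.06).

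Of 33 G1 cyclins, CDK inhibitors and related genes, 4 were higher in OCI-AML3, 8 were lower and 21 were not called, with a median of 0.04. CDKN2A (chr9:21967752-21995324), which encodes p16 and p14ARF, had no reads in Molm-14 and was at 27.3, 25.9, 31.2 and 23.2 CPM in OCI-AML3, at least 641-fold higher. CDKN1A, the inhibitor p21, was at 237, 244, 240.4 and 238 CPM in Molm-14 and at 26, 28, 27.4 and 25.4 CPM in OCI-AML3. RB1 was lower (112 ± 4.27 CPM in Molm-14 and 35.8 ± 1.24 CPM in OCI-AML3), as was CDKN2C (-2.27 ± 0.05). Of 38 replication genes TK1 alone was called (1.70 ± 0.07), and none of 32 mitosis genes was, with list medians of -0.07 and 0.09.

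Among 54 chromatin and DNA methylation genes, 5 were higher and 7 were lower. BMI1 (chr10:22321099-22331706), a Polycomb subunit needed for self-renewal, was at 448, 391, 436 and 418 CPM in Molm-14 and at 18, 18.2, 18.5 and 21.3 CPM in OCI-AML3 (-4.48 ± 0.06, adjusted p = 1.57e-31). Its neighbour COMMD3, which shares read-through transcripts with it, was also lower (-2.82 ± 0.06). The Polycomb genes CBX7 and PCGF2 were higher and CBX8 was lower (2.90, 3.11 and -1.06). DNMT3A, the de novo methyltransferase mutated in OCI-AML3, was higher (17.4 ± 1.015 CPM in Molm-14 and 50.2 ± 3.07 CPM in OCI-AML3), and DNMT3B was lower (88.6 ± 1.63 CPM in Molm-14 and 21.6 ± 1.500 CPM in OCI-AML3). NPM1, at 1945 ± 119.9 CPM in Molm-14 and 1543 ± 63.4 CPM in OCI-AML3, was not called. Of 38 cytosolic ribosomal protein genes 2 were called lower, RPL10 (-1.69 ± 0.04) and RPL22L1 (-1.07 ± 0.07), with a list median of -0.21. TERT, the telomerase catalytic subunit, was at 18.6 ± 1.9 CPM in Molm-14 and 115 ± 5.48 CPM in OCI-AML3.

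Genes of glycolysis and glucose uptake were called higher in OCI-AML3 more often than all genes were. Of 38 such genes, 13 were higher (34.2%) and 3 were lower (7.89%), with a median of 0.55. The shares of all genes were 17.9% and 12.2%. HK1 (chr10:69270000-69401882), a hexokinase, was at 1.21, 1.41, 0.723 and 0.911 CPM in Molm-14 and at 81.4, 78, 80.3 and 76.3 CPM in OCI-AML3, and HK2 and HK3 were also higher (1.05 ± 0.05 and 1.79 ± 0.14). PFKM, the muscle form of phosphofructokinase, was at 2.7 ± 0.431 CPM in Molm-14 and 31 ± 1.88 CPM in OCI-AML3. The fructose transporter SLC2A5 and the glucose transporter SLC2A1 were higher (2.53 ± 0.05 and 1.38 ± 0.06), whereas SLC2A3, another glucose transporter, was lower (-1.43 ± 0.04). FBP1, the gluconeogenic phosphatase, gave a ratio of reads of 1755 (exact 95% interval 315 to 69343), from 1 read in Molm-14. The abundant enzymes of the lower pathway, GAPDH, ENO1, ALDOA, PGAM1 and LDHA, were not called, with differences between -0.11 and 0.34. Of 22 pentose phosphate, glycogen and hexosamine genes, 3 were higher and 3 were lower, with a median of -0.12. Glycogen synthase GYS1 was higher (2.10 ± 0.05) and the pentose phosphate enzyme PGD was lower (-1.55 ± 0.04).

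Among mitochondrial genes, of 44 respiratory chain subunits, 4 were lower in OCI-AML3 (9.09%) and 1 was higher (2.27%), with a median of -0.38. Both shares were below those of all genes, 12.2% lower and 17.9% higher. NDUFS7, a subunit of complex I, was lower at -1.24 ± 0.06. Of 30 genes of mitochondrial biogenesis and dynamics, 3 were higher (10%) and 4 were lower (13.3%). TFAM, the mitochondrial DNA packaging factor, was lower (199 ± 11.2 CPM in Molm-14 and 87.8 ± 4.84 CPM in OCI-AML3), as was the ADP/ATP carrier SLC25A4 (34.4 ± 2.36 CPM in Molm-14 and 3.07 ± 0.567 CPM in OCI-AML3). In the TCA cycle and its feeders 5 of 37 were higher and 5 lower (13.5% each). GOT1 (chr10:99396870-99430624), the cytosolic aspartate aminotransferase, was at 99.8, 93, 90.01 and 93.7 CPM in Molm-14 and at 6.74, 6.21, 6.04 and 4.91 CPM in OCI-AML3 (-3.99 ± 0.08). BCAT1, the branched-chain aminotransferase, was lower (245 ± 10.5 CPM in Molm-14 and 46.4 ± 1.22 CPM in OCI-AML3) and its mitochondrial counterpart BCAT2 was higher (1.19 ± 0.07). SDHA was higher by 1.05 ± 0.03.

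Genes of the amino acid stress response were mostly lower in OCI-AML3 or not called. Of the 29 measured genes of the integrated stress response and amino acid transport, 15 were lower in OCI-AML3 and 1 was higher, with a median of -1.10. ATF4, the transcription factor at the centre of the response, was at 631, 608, 579.7 and 612 CPM in Molm-14 and at 276, 264, 292 and 252 CPM in OCI-AML3 (-1.17 ± 0.04). Its targets TRIB3 and ATF3 were lower (-2.19 ± 0.06 and -2.92 ± 0.13). ASS1 (chr9:130444707-130501274), an enzyme of the route from citrulline to arginine, was at 775, 782, 764 and 769.6 CPM in Molm-14 and at 86.8, 73.3, 81.4 and 70.6 CPM in OCI-AML3. The glutamine and neutral amino acid transporters SLC38A1 and SLC38A2 and the cystine carrier SLC7A11 were lower (-3.20 ± 0.07, -1.67 ± 0.07 and -2.24 ± 0.09). ASNS, asparagine synthetase, was not called (-0.55 ± 0.07), and SLC1A4 was the member higher in OCI-AML3, at 75.7 ± 3.03 CPM in Molm-14 and 186 ± 1.94 CPM in OCI-AML3.

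Serine synthesis genes were lower as well. Of 27 serine, glycine and folate genes, 7 were lower and 3 were higher. PHGDH, PSAT1 and PSPH, the 3 enzymes that make serine from a glycolytic intermediate, were lower at -1.07 ± 0.05, -1.33 ± 0.04 and -1.78 ± 0.06. SHMT2 was lower (-1.09 ± 0.04), while CBS, the entry enzyme of transsulphuration, was higher (72.9 ± 2.41 CPM in Molm-14 and 279.6 ± 17.5 CPM in OCI-AML3). The folate carrier SLC46A1 was at 0.644 ± 0.163 CPM in Molm-14 and 18.9 ± 0.99 CPM in OCI-AML3.

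In lipid metabolism 10 of 43 genes were higher and 6 were lower. FADS2 (chr11:61816203-61867354), a desaturase of polyunsaturated fatty acids, was at 1.44, 0.951, 1.17 and 1.54 CPM in Molm-14 and at 259, 238, 246 and 226 CPM in OCI-AML3, and the adjacent FADS1 was at 13.2 ± 1.302 CPM in Molm-14 and 186 ± 7.18 CPM in OCI-AML3. CPT1A, the gatekeeper of fatty acid entry into mitochondria, was lower (83.2 ± 4.52 CPM in Molm-14 and 8.37 ± 0.78 CPM in OCI-AML3), whereas the oxidation enzymes CPT2 and HADHB were higher (1.24 and 1.13). PPARG, a lipid-activated nuclear receptor, was at 0.536 ± 0.175 CPM in Molm-14 and 12.9 ± 0.653 CPM in OCI-AML3. SCD, the stearoyl desaturase, was lower (-1.29 ± 0.04) and FASN was not called (0.55).

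Nucleotide genes included several that handle nucleoside drugs. Of 41, 8 were higher (19.5%) and 2 were lower (4.88%), against 17.9% and 12.2% of all genes. SAMHD1 (chr20:36889773-36951708), the deoxynucleotide hydrolase that also hydrolyses the active form of cytarabine, was at 71.3, 70.3, 74.4 and 71.7 CPM in Molm-14 and at 369, 356, 361 and 368 CPM in OCI-AML3 (2.34 ± 0.04, adjusted p = 1.22e-30). SLC29A2, an equilibrative nucleoside transporter, was at 36.4 ± 2.1 CPM in Molm-14 and 2.05 ± 0.318 CPM in OCI-AML3. CDA, cytidine deaminase, was at 0.189 ± 0.0305 CPM in Molm-14 and 3.09 ± 0.879 CPM in OCI-AML3. NT5E, the ecto-nucleotidase CD73, gave a ratio of reads of 2602 (exact 95% interval 467 to 102812). Of 19 ABC transporters, 5 were higher and 1 was lower, and ABCC1 was not called (0.77).

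Several phagocyte oxidase and lysosomal genes were higher in OCI-AML3. Beside CYBB, the cytosolic oxidase subunits NCF4 and NCF1 were at 21.5 ± 1.54 CPM in Molm-14 and 250.1 ± 17.2 CPM in OCI-AML3 and at 31 ± 0.965 CPM in Molm-14 and 217 ± 20.2 CPM in OCI-AML3, the last uncertain because NCF1 has near-identical copies, NCF1B and NCF1C. The membrane partner CYBA was not called (0.45). Of 32 lysosome and autophagy genes, 10 were higher and 2 were lower, with a median of 0.23. The proteases CTSD, CTSZ, CTSH and CTSL were among those higher (1.90, 1.44, 1.21 and 6.89), as was progranulin, GRN (118 ± 4.17 CPM in Molm-14 and 481 ± 41 CPM in OCI-AML3). MITF and TFEB, transcription factors of lysosomal genes, were lower (-4.37 ± 0.26 and -1.44 ± 0.07). Of 40 redox and iron genes, 8 were higher (20%) and 4 were lower (10%), near the 17.9% and 12.2% of all genes. TFRC, GCLC and TXNRD1 were among those lower (-1.35, -1.84 and -1.32).

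Genes that load and display peptides on MHC class I were lower in OCI-AML3 where they were called, except HLA-F. Of 20 MHC class I and antigen processing genes, 7 were lower in OCI-AML3 and 1 was higher, with a median of -0.53. HLA-B and HLA-C were lower at -1.27 ± 0.04 and -1.70 ± 0.04, values that are uncertain because these genes vary between people and resemble each other, and the part of read alignment in them was not tested. TAP1, the peptide transporter, and PSMB8, an immunoproteasome subunit, were lower (-1.06 ± 0.06 and -1.16 ± 0.05), and B2M was not called (-0.81 ± 0.05). The class II genes HLA-DRA and HLA-DRB1 were under 1 CPM on average in both lines. Interferon response genes had no common direction, 8 of 35 higher and 9 lower: MX2 and IFI16 were higher (4.13 ± 0.10 and 2.30 ± 0.06) and GBP2 and GBP5 were lower (-3.75 ± 0.19 and -3.01 ± 0.16). Adhesion genes were divided too, with 10 of 29 higher and 7 lower. The integrin chains ITGB2 and ITGA5 were higher (1.23 ± 0.04 and 1.51 ± 0.04), while ITGAL and ITGAV were lower (-1.03 ± 0.04 and -1.39 ± 0.09), ITGAL being at -0.994 without OCI-AML3 library 3.

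**Figure D4:**
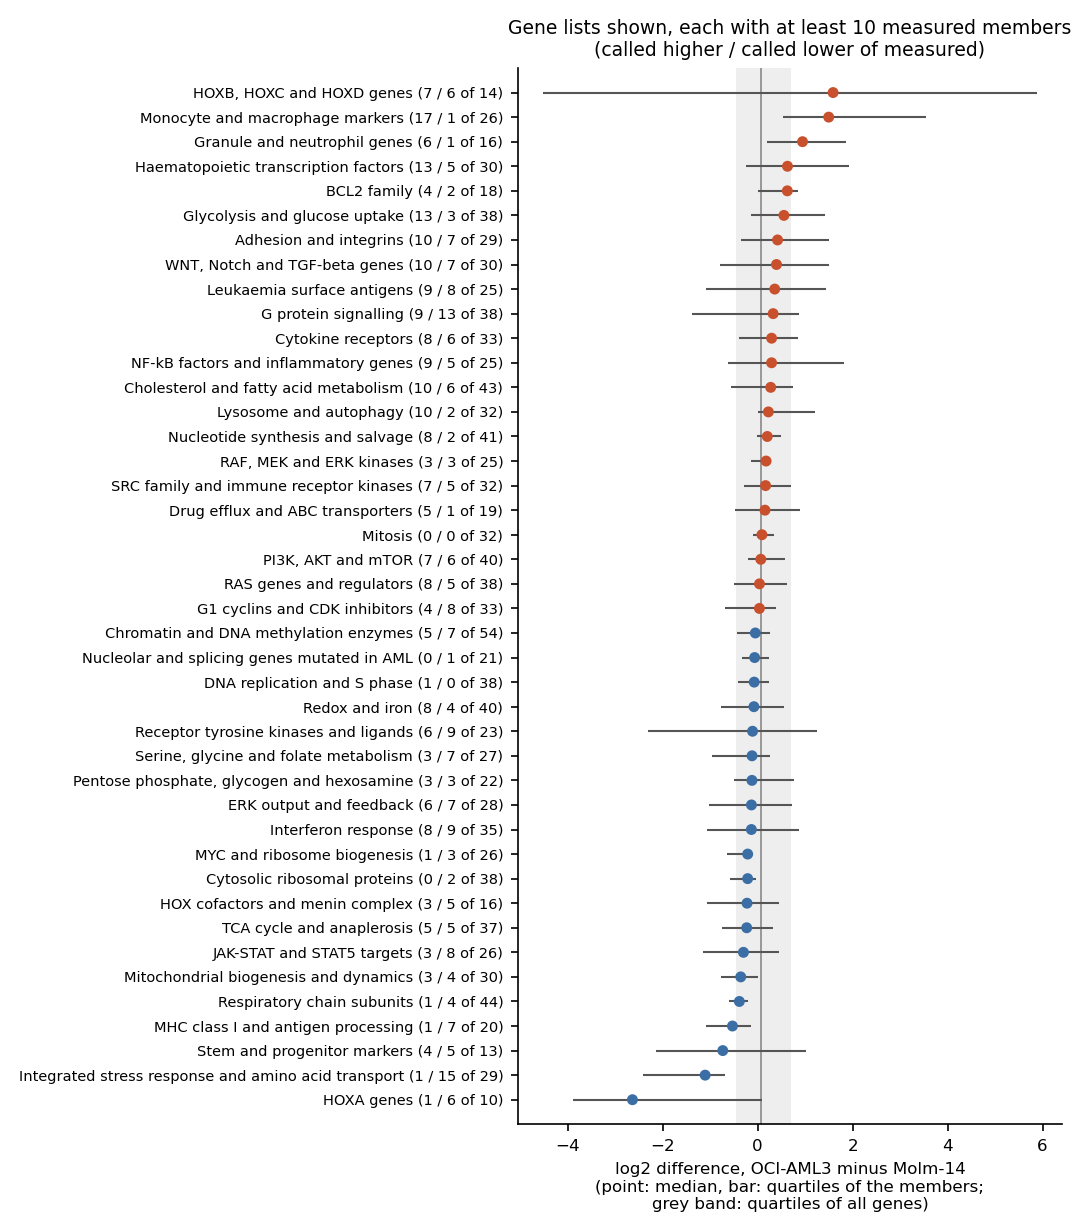
Median log2 difference between untreated OCI-AML3 and untreated Molm-14 (points) with the quartiles of the measured members (bars) for the gene lists, beside the all-gene median. The monocyte list lies at 1.50 and the integrated stress response list at -1.10, while replication, mitosis and RAS regulators lie within 0.1 of 0.

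Differences were not spread evenly along the genome. Chromosome 13 had a median difference of -0.84 over 230 genes, 43.9% of which were called lower in OCI-AML3 and 6.96% higher. Chromosomes 6, 10 and 12 had medians of -0.49, -0.42 and -0.32, and chromosomes 22, 17 and 7 had the highest medians at 0.39, 0.38 and 0.37. In windows of about 40 neighbouring genes with a mean of at least 20 CPM, a division made after the chromosome medians were seen, 13 of 193 windows had a median below -0.6 and 9 had one above 0.6. The lowest was chr13:41311267-76886405, at -1.61, where 39 of 46 genes were called lower, RB1, DACH1 and SUCLA2 among them. Another was the end of the long arm of chromosome X, chrX:152831063-156025670, at -1.24, with 24 of 38 genes lower, among them RPL10, DKC1, IDH3G and NSDHL. The highest was chr5:196868-32604079, at 1.04, where 21 of 40 genes were higher, TERT, SDHA and BASP1 among them, followed by chr14:60091911-75546992 at 0.99 and chr17:74748628-76453152, which holds GRB2, at 0.94.

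**Figure D5:**
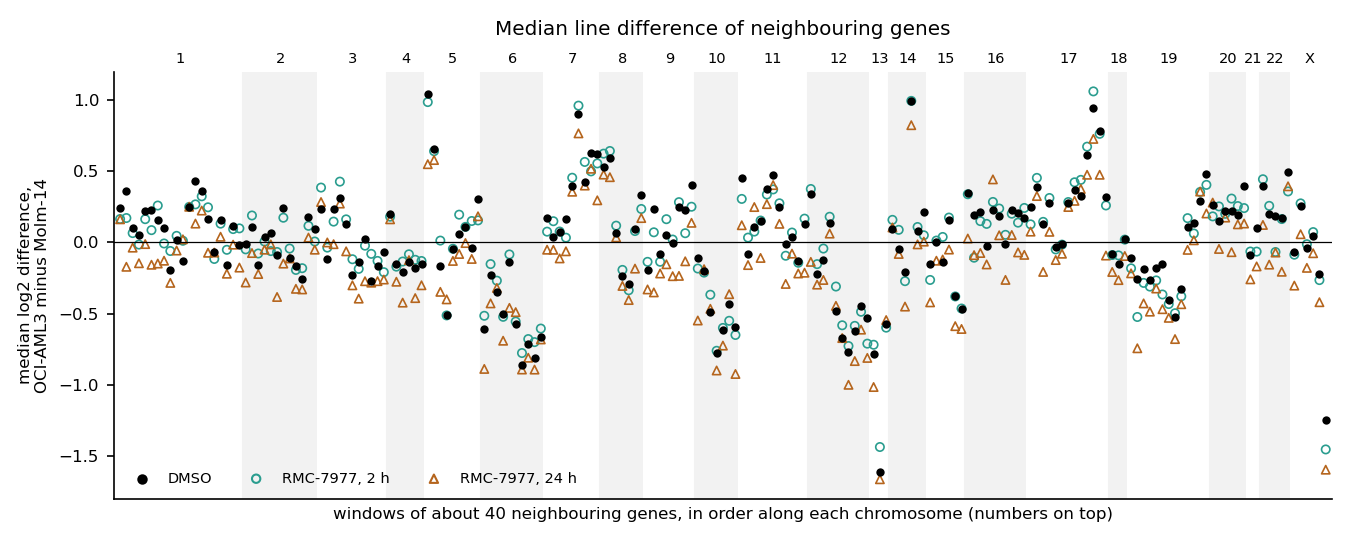
Median log2 difference of neighbouring genes in 193 windows, ordered along each chromosome, with a black point for the DMSO libraries and open circles and triangles for 2 h and 24 h of RMC-7977. Among the DMSO points, most windows lie near 0, 1 window of chromosome 13 and the last window of chromosome X lie lowest, and the first window of chromosome 5 lies highest.

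Several genes described above lie in such windows. FLT3 is in a window of chromosome 13 with a median of -0.78, SOCS2 in one of chromosome 12 at -0.77 and GOT1 and SCD in one of chromosome 10 at -0.62. Their own differences were -2.45, -7.31, -3.99 and -1.29. Other genes lay at the level of their window: RB1 was at -1.65 in its window at -1.61, and SDHA at 1.05 in its window at 1.04. The part of DNA copy number in these differences was not tested. List medians were also taken without the genes of chromosomes 6, 10, 12, 13 and X. Chromosomes 6, 10, 12 and 13 were chosen for their low medians. Chromosome X had a median of -0.06, with only its last window below -0.6. Leaving out chromosomes chosen in this way tends to raise medians by construction. Of 48 lists, 37 then had a higher median, 7 a lower one and 4 the same, and 10 changed sign. The integrated stress response list went from -1.10 to -0.93, the monocyte list from 1.50 to 1.32 and the glycolysis list from 0.55 to 0.72. Larger relative moves were those of the lysosome list, from 0.23 to 0.83, of the PI3K list, from 0.07 to 0.37, of the ribosomal protein list, from -0.21 to -0.07, and of MHC class I, from -0.53 to -0.81. The list of receptor tyrosine kinases was among those that changed sign, from -0.11 to 0.53.

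Most of the differences between the lines were also present with drug. At 2 h of 25 nM RMC-7977, 4085 genes (31.3%) were called between the lines, and at 24 h 4656 genes (35.7%). Among all genes 18.5% were called higher and 12.9% lower at 2 h, and 19.7% and 16.1% at 24 h. Of the 2339 genes higher in untreated OCI-AML3, 2014 (86.1%) were called higher at 2 h, 83.7% of the genes higher at that time, and 1871 (80.0%) at 24 h, 73.0% of those. Of the 1593 lower genes, 1331 (83.6%) were called lower at 2 h, 79.2% of the genes lower at that time, and 1171 (73.5%) at 24 h, 56.0% of those. These treated libraries are separate from the DMSO libraries. FLT3 differed by -1.56 at 2 h and -1.57 at 24 h, RASGRP2 by 2.52 and 3.29, BMI1 by -4.69 and -4.31, LYZ by 2.55 and 5.16, and HOXB3 by 7.37 and 6.07.

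A small set was called in the opposite direction in treated cells. Of the genes higher in untreated OCI-AML3, 7 were called lower at 2 h and 27 at 24 h, and of those lower without drug, 0 were called higher at 2 h and 17 at 24 h. KLF2 averaged 4.2 CPM in untreated Molm-14 and 58.4 CPM in untreated OCI-AML3, but 407 and 170.2 CPM at 2 h (-1.26). JUN was also lower in OCI-AML3 at 2 h (-1.03). At 24 h the glucose transporter SLC2A1 averaged 101 CPM in Molm-14 and 20.3 CPM in OCI-AML3, a difference of -2.31 against 1.38 without drug. TERT went from 2.63 to -2.34, averaging 6.93 and 1.4 CPM at 24 h. SLC7A11 went the other way, from -2.24 to 2.80, with 10.1 CPM in Molm-14 and 69.9 CPM in OCI-AML3. RUNX3, NCF1, PIM2 and SQLE also turned from higher to lower at 24 h (-1.17, -2.18, -1.02 and -1.45), and FGFR1, MT2A and HLA-DRA from lower to higher (1.03, 1.25 and 2.26).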

How the data were processed

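Polyadenylated RNA was sequenced, and the deposited table gives log2 CPM for 13033 genes in 23 libraries, per its values and the labels. Per the submitters' processing notes the tools included Trimmomatic 0.36, STAR 2.7.8a, RSEM 1.3.3, edgeR 3.24.3, limma 3.38.3 and MultiQC 1.28, with build hg38/GRCh38; the strand setting is not given in the sources used here. The lowest value of the table (0.105 CPM) stands for 0 reads with a prior count of 1.96. In the 8 untreated libraries the low values, up to 20 reads, came out as whole reads within 0.05 in 75.7 to 79.4% of cases. Over all 23 libraries the range was 74.5 to 81.7%, so read numbers are estimates. The value column of 1 OCI-AML3 library at 24 h was not analysed here.

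Groups came from the labels. limma 3.58.1 in R 4.3.3, with trend and robust moderation, was fitted to all 23 libraries with 6 group means, and p-values were adjusted over all genes by the Benjamini-Hochberg method. The script was tested on simulated data. Where a group held 3 reads or fewer, a read ratio with an exact 95% interval, or a bound from 3 reads over the group, replaces the fold; these cover counting error only. CPM does not allow for gene length, so levels were compared within genes only. Gene positions and promoters are RefSeq's on GRCh38.p14 (12992 symbols matched the reference). Genes were named by rule: the 15 widest called differences in each direction with at least 5 CPM in the higher line and no overlap, without antisense, read-through, pseudogene or clone-based names, then in each list the 4 called members with the smallest adjusted p and the most abundant member, and a fixed set of RAS, lineage and AML genes. Y-linked genes were left out, and some genes that the rule names are not reported here. Further genes were chosen after their values were seen, and the members and lists were chosen with earlier results of these data known. Alternatives covered scaling, pseudocount, filter, fit, voom, block and left-out libraries.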

Additional observations from a re-analysis of the deposited data

Results flagged for a closer look

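A value in a group of 4 libraries stood apart when its gap to the nearest other value was too large a part of the group's whole range by Dixon's 95% critical value, which chance alone gives in about 1 group in 20. Over the 313 genes named, 626 groups were examined and 39 (6.23%) met this rule.

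In 17 of these the other 3 libraries held no reads, at the lowest value of the table (0.105 CPM), and the library that stood apart held 1 or 2 reads, so the gap is that of a read against none. Molm-14 library 1 was at 0.197 CPM for COL1A2, 0.197 CPM for HGF, 0.197 CPM for HOXB13, 0.151 CPM for HOXB6, 0.151 CPM for MT1G and 0.151 CPM for NT5E. Molm-14 library 2 was at 0.17 CPM for FBP1. Molm-14 library 3 was at 0.161 CPM for CDHR1, PBX4 and SLC22A31 and 0.217 CPM for EBF1. Molm-14 library 4 was at 0.167 CPM for ANPEP and NIPSNAP1. OCI-AML3 library 2 was at 0.151 CPM for SNX19. OCI-AML3 library 3 was at 0.149 CPM for HOXC4, HOXC8 and HOXC9.

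The other values that stood apart lay within 2-fold of the remaining libraries of their group, except those of HLA-DRB1 and PPARG. In Molm-14 library 1 HADHB was at 71.2 CPM (others 62.5 to 63.5), SDHA was at 279.9 CPM (others 271 to 272) and SLC46A1 was at 0.403 CPM (others 0.679 to 0.752). In Molm-14 library 2 HLA-DRB1 was at 0.365 CPM (others 0.948 to 1.1), HOXA10 was at 154 CPM (others 151 to 152), HOXB3 was at 0.495 CPM (others 0.33 to 0.353), ITGAV was at 14.2 CPM (others 16.3 to 16.6), LZTR1 was at 36 CPM (others 32 to 32.4), MEIS1 was at 52 CPM (others 55.3 to 55.9) and PTK2B was at 152 CPM (others 140.2 to 141). In Molm-14 library 3 PPARG was at 0.273 CPM (others 0.609 to 0.636). In Molm-14 library 4 HOXA13 was at 61.3 CPM (others 63.4 to 63.7). In OCI-AML3 library 1 ITGA5 was at 270.2 CPM (others 251 to 253), SIGLEC7 was at 32.9 CPM (others 28.9 to 29.6) and TXNRD1 was at 115 CPM (others 123 to 125). In OCI-AML3 library 2 BCL11A was at 0.694 CPM (others 0.541 to 0.564), ETV5 was at 12.4 CPM (others 11.2 to 11.4) and PBX3 was at 14.7 CPM (others 13.4 to 13.5). In OCI-AML3 library 4 BMI1 was at 21.3 CPM (others 18 to 18.5), CPNE7 was at 79.2 CPM (others 94.9 to 96.5), GBP5 was at 0.994 CPM (others 1.63 to 1.7) and NCF1B was at 70.4 CPM (others 77.6 to 79.1). Every one of these genes kept its direction when each library was left out in turn.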

How the results depend on the processing

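Limits of the data come first. The values are scaled CPM and not counts, the 4 libraries of a line may be technical repeats, and low genes rest on few reads, so a difference for a gene under about 0.25 CPM in 1 line is a presence or absence and not a size. With a mean of at least 5 CPM required, 2579 genes of the 10654 tested were called between the untreated lines and 1449 were higher, and 1517 of 10770 and 1686 of 11107 were higher at 2 h and 24 h, because fewer genes entered and low genes are those that could be near absent in 1 line. That filter gave chromosome medians, relative to all genes, of 0.010 for chromosome 2, 0.108 for 5, -0.580 for 6, 0.332 for 7, 0.113 for 9, -0.464 for 10 and -0.360 for 12. With a near silent limit of 0.5 CPM, 87 genes were near silent in OCI-AML3. The table's own set of genes was the main choice, so no unfiltered alternative was run beside it.

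Other settings moved the counts less. Untreated calls numbered 3934 with library totals as scaling, 3913 with median-of-ratios scaling, 3392 with a pseudocount of 1 CPM, 3929 with the compared libraries alone, 3933 without the trend and robust options and 3980 with limma voom on recovered reads. Leaving out 1 library gave 3903 to 3971 calls. Median-of-ratios scaling shifted the median of all genes by -0.070 and library totals by 0.012. With the replicate number as a block the calls were 3932, 2339 higher and 1593 lower, and 4085 at 2 h and 4649 at 24 h. Same-numbered libraries of the lines were also correlated after each line's mean was subtracted, over 10654 genes with a mean of at least 5 CPM. The values were -0.03, -0.05, -0.17 and 0.11, and only Molm-14 library 4 had its highest correlation with its own number. They show no clear pairing by number but cannot exclude one.

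No called gene examined changed direction under these settings. IRF8, HOXA13, SDHA and HK2 fell under the threshold with median-of-ratios scaling (0.934, 0.971, 0.976 and 0.984), CD47 with library totals (-0.998), and CD47, MEIS1, ETV1, OSM, ITGAM, HLA-DRA and HLA-DRB1 with a pseudocount of 1 CPM (-0.993, -0.997, -0.875, -0.846, -0.883, -0.706 and -0.762). PTPN6 passed with library totals (1.007). Medians of 4 of 48 lists changed sign, none above 0.07 in size before. Under the 5 CPM filter, which leaves fewer members, a list median moved by up to 5.40, that of the HOXB, HOXC and HOXD genes from 1.59 to 6.99, and that of the HOXA genes went from -2.64 to -0.289. Under the other settings list medians moved by at most 0.79.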

Other observations

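Among the near silent genes that the gene lists did not hold, several are known outside the pathways described above. MGMT (chr10:129467241-129770983), the DNA repair enzyme that removes alkyl groups from guanine, had no reads in the 4 untreated Molm-14 libraries and was at 26.2, 25.5, 29.7 and 21.5 CPM in the OCI-AML3 libraries, at least 613-fold higher against a floor of 3 reads over the group. With RMC-7977 it averaged 0.119 CPM in Molm-14 and 27.8 CPM in OCI-AML3 at 2 h, and 0.134 CPM and 26.1 CPM at 24 h. CAV1 (chr7:116525009-116561185), the scaffold protein of caveolae, had no reads in OCI-AML3 and averaged 20.7 ± 1.31 CPM in Molm-14, at least 554-fold lower.

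ZFP57 (chr6:29672392-29681152), a zinc finger protein that maintains methylation of imprinted regions, had no reads in untreated OCI-AML3, as SNRPN, an imprinted gene, had none. ZFP57 was at 16.5, 15.3, 15.7 and 13.8 CPM in the Molm-14 libraries. No relation between the genes was tested. These genes were picked after their values were seen.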
